A study of Mus musculus with 20 samples.

Results

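Cholesterol and fatty acid synthesis were followed at the transcript level through 37 genes, chosen by name as the enzymes, regulators and transporters of these pathways out of 23992 gene symbols with a count. The genes fell into regulators (4 genes), the mevalonate and isoprenoid branch (8), the steps from squalene to cholesterol (11), sterol transport and efflux (3) and fatty acid synthesis with its carbon and NADPH supply (11). Their expression was measured by RNA-sequencing in splenic CD8+ T cells of wild-type C57BL/6J mice aged 6 to 8 weeks. All cells, the unstimulated controls included, had been pre-activated for 48 hours with plate-bound anti-CD3 (2 µg/mL) and soluble anti-CD28 (1 µg/mL) and then rested. Cells were next cultured for 24 hours without cytokine (unstimulated, labelled Unstim), with murine interleukin-21 (mIL-21, labelled WT) or with 21h10 (labelled h10), a protein designed de novo to bind and activate the IL-21 receptor. Experiment 1 compared both cytokines at 100 pM and 1 nM, and experiment 2 compared them at 10 nM and 100 nM. Each experiment had its own unstimulated cells and 5 groups of 2 libraries labelled as duplicates, 20 libraries in all. In general terms the study's RNA-sequencing replicates were independent tissue preparations, but the labels do not tie each duplicate to a mouse or culture of its own, and the p-values below measure the spread between these libraries. Dose range and experiment cannot be told apart, because no dose was used in both experiments.

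Cholesterol and fatty acids are built from the same precursor, acetyl-CoA. In the sterol route, acetyl-CoA units are joined and reduced to mevalonate, which is converted to isoprenoids, squalene, lanosterol and finally cholesterol. In the other route, acetyl-CoA is carboxylated and extended to saturated fatty acids, which are then desaturated and elongated. Both routes are controlled by the SREBP transcription factors, held in the endoplasmic reticulum by INSIG proteins when sterols are plentiful and carried to the Golgi by SCAP when they are scarce. T cells that leave quiescence need new membrane, and these pathways are known to be switched on by T cell receptor and cytokine signalling.

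The promoters of 4 of these genes are shown because the results below turn on them: the 3 sterol genes with a promoter entry and the widest difference between the cytokines at 100 pM (Msmo1, Hmgcs1 and Cyp51), and Fasn, which fell the most in experiment 1. The sequences are the 250 bases before the gene start, from RefSeq on GRCm38.p6, written 5′ to 3′ on the strand of the gene. Capitals mark the core of the sterol regulatory element (TCACNCCAC, on either strand) and the NF-Y box (CCAAT, or ATTGG on the other strand).
Msmo1 (chr8:64733579-64733828, minus strand): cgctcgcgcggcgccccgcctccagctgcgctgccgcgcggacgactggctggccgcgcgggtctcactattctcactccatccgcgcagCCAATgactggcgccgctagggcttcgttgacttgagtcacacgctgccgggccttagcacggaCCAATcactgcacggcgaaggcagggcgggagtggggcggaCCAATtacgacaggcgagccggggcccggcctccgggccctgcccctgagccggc
Hmgcs1 (chr13:119690101-119690350, plus strand): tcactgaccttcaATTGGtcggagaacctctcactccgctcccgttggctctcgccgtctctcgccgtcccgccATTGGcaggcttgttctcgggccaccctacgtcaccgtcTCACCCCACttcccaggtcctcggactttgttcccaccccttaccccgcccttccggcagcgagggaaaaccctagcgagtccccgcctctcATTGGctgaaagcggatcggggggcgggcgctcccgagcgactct
Cyp51 (chr5:4104698-4104947, minus strand): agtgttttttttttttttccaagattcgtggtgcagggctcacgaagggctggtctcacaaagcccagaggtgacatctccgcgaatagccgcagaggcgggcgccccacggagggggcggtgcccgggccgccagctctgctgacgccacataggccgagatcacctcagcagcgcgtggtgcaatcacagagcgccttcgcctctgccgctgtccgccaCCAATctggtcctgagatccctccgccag
Fasn (chr11:120824548-120824797, minus strand): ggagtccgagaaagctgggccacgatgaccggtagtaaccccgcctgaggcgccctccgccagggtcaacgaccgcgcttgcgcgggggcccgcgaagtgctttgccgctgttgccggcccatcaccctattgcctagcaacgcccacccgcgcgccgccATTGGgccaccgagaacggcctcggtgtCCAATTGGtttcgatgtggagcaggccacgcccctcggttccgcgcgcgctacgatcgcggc
The start of Fasn used here lay 619 bases inside the gene as RefSeq delimits it, whereas for the other 3 genes it was the edge of the gene. The first base of the counted transcripts was not compared. Promoter entries were found for 29 of the 37 genes, and letters were searched on both strands in the 250 bases before and 50 bases after the start. The sterol element core was spelled out in 1 of 29 promoters (Hmgcs1, 3.45%), against 1.44% of the 27025 promoters of the table. A CCAAT box was present in 23 of 29 (79.3%, against 41.1% of all promoters), including 9 of 9 with an entry in the squalene to cholesterol branch. The Sp1 box GGGCGG was also present in 23 of 29 (79.3%, against 38.2%), and the E-box CACGTG in 7 of 29 (24.1%, against 8.09%). A match is a description of letters, and its absence says only that these letters were not in this window.

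The libraries held between 36829350 and 94079673 reads on genes in experiment 1 and between 27074399 and 43303144 in experiment 2, and all 37 genes passed the filter on low counts in both. The fewest reads of any of the 37 were those of Me1 in experiment 2, at 43 in 1 library. Reads are given as CPM, the counts of a gene scaled to a common library size by TMM, fold changes as log2 values, and a difference was called at an edgeR quasi-likelihood adjusted p (Benjamini-Hochberg, over all genes tested) under 0.05. The cells carried the markers of their label: Cd8a ranged from 102 to 150 RPKM (the authors' reads per kilobase, scaled to mapped reads), whereas Cd4 stayed between 0.208 and 1.09. Of 6 myeloid markers, Itgam moved with treatment (summed myeloid markers 0.213 to 0.278 RPKM in unstimulated and 13.3 to 14.4 with 21h10 at 1 nM in experiment 1), while the defining Lyz2 and Csf1r were at or near 0. Changes in the make-up of bulk cells and in RNA per cell cannot be told apart in any result below.

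In unstimulated cells of experiment 1, transcript levels per length (RPKM, mean ± SD, n = 2) spanned from 0.238 ± 0.0356 for Abca1 to 178 ± 3.06 for Scd2. The stearoyl-CoA desaturase Scd2 was followed by Fdps at 70.4 ± 1.14, Idi1 at 67.2 ± 0.901 and Acly at 61.6 ± 0.903. Scd1, the other desaturase, was at 15.2 ± 0.089, and the lowest synthesis enzymes were Hsd17b7 at 2.68 ± 0.261, Tm7sf2 at 2.47 ± 0.249 and Me1 at 0.52 ± 0.0239. Pmvk, at 15.2 ± 0.865, and Scd1 were neighbours in this order that did not differ beyond their spread. In experiment 2, Scd2 was again the highest at 148 ± 6.26 and Abca1 the lowest at 0.338 ± 0.0295.

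The summed level of the 19 genes of both sterol branches gave a first view of the response. In experiment 1 it was 1324 and 1306 CPM in the 2 unstimulated libraries, 1334 and 1319 (mIL-21) against 2119.5 and 2138 (21h10) when given 100 pM, then 2055 and 1989 (mIL-21) against 2079 and 2011 (21h10) when given 1 nM. The groups treated with 21h10 at either dose or with mIL-21 at 1 nM thus lay above the unstimulated libraries, and the low dose of mIL-21 stayed beside them. That sum held changes in both directions, since with mIL-21 at 100 pM 11 of the 19 genes were higher and 5 lower (median log2 fold change 0.25, beside 38.3% and 39.4% of all genes called higher and lower), the abundant Idi1 among the lower ones. In experiment 2 the sum was 1168 and 1196 CPM in unstimulated cells, 1544 and 1459 (mIL-21) against 1552 and 1525 (21h10) when given 10 nM, then 1644 and 1579.8 (mIL-21) against 1919 and 1936 (21h10) when given 100 nM. Here every treated library was above the unstimulated ones, and 21h10 at 100 nM was the highest. The sum over the 11 fatty acid genes, with Scd2 as the largest part, followed the same order in experiment 1, with 2501 and 2489 CPM in unstimulated cells, and at 100 pM 2595 and 2596 (mIL-21) against 3652 and 3752 (21h10).

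**Figure D1:**
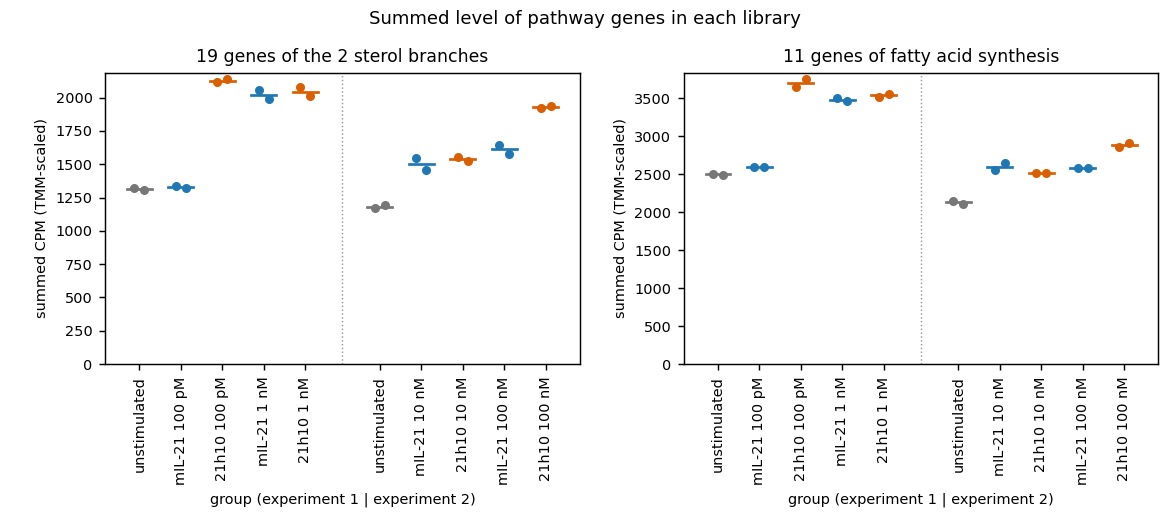
Summed CPM (y axis, TMM-scaled) of the 19 genes of the sterol branches (left) and of the 11 fatty acid genes (right) in each library (points) with the group mean (bars), by group (x axis; grey, unstimulated; blue, mIL-21; orange, 21h10). In experiment 1 the mIL-21 100 pM libraries sit at 1334 and 1319 CPM for the sterol genes, beside the unstimulated ones at 1324 and 1306, and the other treated groups lie higher.

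Both cytokines raised most of the pathway in experiment 1. Averaged over the 4 treated groups, 28 of 37 genes were higher and 6 lower than in unstimulated cells, with a median log2 fold change of 0.74. The response of the transcriptome was broad, since 84.3% of all 13974 genes tested were called in either direction (41.3% higher and 43% lower) with a median of -0.0057. By treatment, mIL-21 at 100 pM gave 22 higher and 10 lower genes, beside 38.3% and 39.4% of all genes (77.7% in either direction). For 21h10 at the same dose these were 29 and 5, beside 40.2% and 41.3% (81.6%). At 1 nM, mIL-21 gave 29 and 5, beside 39.9% and 40.3% (80.1%), and 21h10 27 and 6, beside 38.3% and 42.1% (80.3%). These 4 comparisons share the unstimulated libraries.

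**Figure D2:**
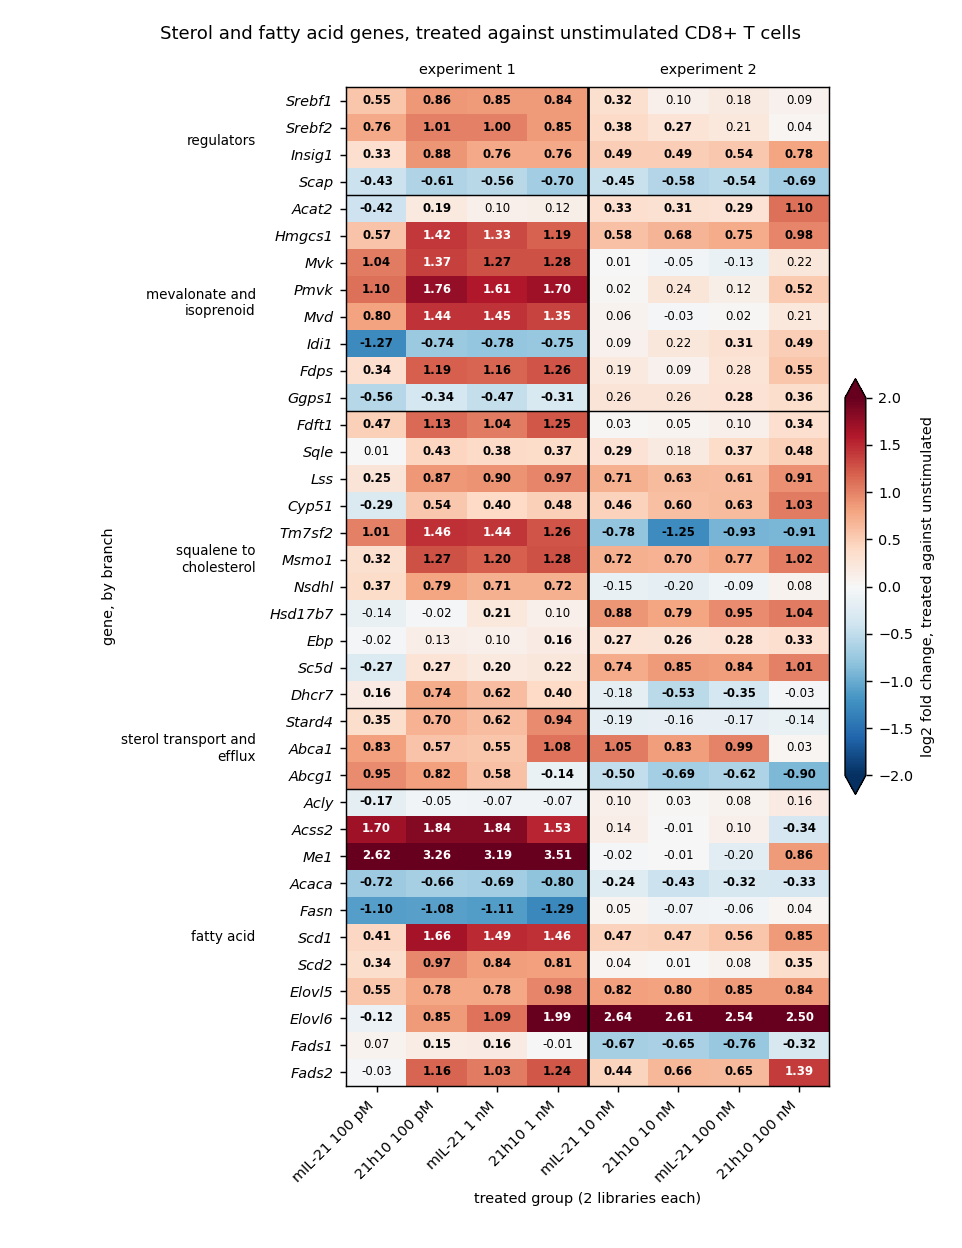
Log2 fold change against the unstimulated cells of the same experiment (colour and number) for the 37 genes (rows, by branch) in the 8 treated groups (columns); bold numbers passed the edgeR adjusted p threshold. Most sterol genes are red in experiment 1 except Idi1 and Ggps1, Me1 and Acss2 are deep red in experiment 1 and pale in most of experiment 2, and Elovl6 is deepest in experiment 2.

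Among the regulators, transcripts of the SREBP genes Srebf1 and Srebf2 and of Insig1, whose protein retains SREBP in the endoplasmic reticulum, rose in experiment 1, whereas Scap, encoding the SREBP escort, fell. Srebf2 counts were 181 and 183 CPM without cytokine, 309 and 306 (mIL-21) against 363 and 367 (21h10) when given 100 pM, then 349 and 380.2 (mIL-21) against 349 and 309.9 (21h10) when given 1 nM. All treated libraries were above both unstimulated ones, and the mean change was 0.90 (SE 0.046, edgeR adjusted p = 3.28e-12). Srebf1 counts were 87.0 and 88.2 CPM without cytokine, 135.9 and 121 (mIL-21) against 162 and 156 (21h10) when given 100 pM, then 155 and 162 (mIL-21) against 164 and 151 (21h10) when given 1 nM, with no overlap between treated and unstimulated libraries and a mean change of 0.78 (SE 0.047). Insig1 counts were 69.4 and 67.7 CPM without cytokine, 82.9 and 89.7 (mIL-21) against 122 and 129.6 (21h10) when given 100 pM, then 118 and 115 (mIL-21) against 118 and 114 (21h10) when given 1 nM, which placed the low dose of mIL-21 between the unstimulated cells and the other treated groups (mean change 0.68 (SE 0.043)). Scap was lower in each treated group, by log2 fold changes from -0.70 to -0.43; 13.2% of its exonic bases overlap 5830462I19Rik, and counting by strand was not stated.

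In the mevalonate and isoprenoid branch, 5 of 8 genes rose and 2 fell on average in experiment 1. The kinases Pmvk and Mvk and the decarboxylase Mvd, which turn mevalonate into isopentenyl diphosphate, rose the most. Pmvk counts were 20.8 and 21.9 CPM without cytokine, 45.4 and 45.8 (mIL-21) against 72.4 and 71.6 (21h10) when given 100 pM, then 64.2 and 65.8 (mIL-21) against 71.7 and 66.5 (21h10) when given 1 nM. Every treated library was above the unstimulated pair, and the mean change was 2.91-fold (log2 fold change 1.54, SE 0.048, edgeR adjusted p = 2.57e-15). Mvd counts were 18.4 and 19.1 CPM without cytokine, 34.1 and 31.1 (mIL-21) against 49.97 and 51.9 (21h10) when given 100 pM, then 48.4 and 53.7 (mIL-21) against 52.5 and 43.1 (21h10) when given 1 nM (mean log2 fold change 1.26 (SE 0.069)). Mvk, a gene of low level, was at 7.38 and 8.05 CPM without cytokine, 16.0 and 15.5 (mIL-21) against 20.3 and 19.4 (21h10) when given 100 pM, then 17.7 and 19.2 (mIL-21) against 19.6 and 17.8 (21h10) when given 1 nM (mean 1.24 (SE 0.066)). Both genes were higher in all treated libraries, with the 100 pM mIL-21 group the lowest of them. Hmgcs1, whose product condenses acetoacetyl-CoA and acetyl-CoA to HMG-CoA, was at 165 and 160.0 CPM without cytokine, 244 and 238 (mIL-21) against 429.6 and 439.6 (21h10) when given 100 pM, then 429 and 387 (mIL-21) against 369.6 and 371 (21h10) when given 1 nM (mean 1.12 (SE 0.043)). Fdps, the farnesyl diphosphate synthase gene, rose by 0.34 on the log2 scale with mIL-21 at 100 pM and by 1.16 to 1.26 in the other groups, its counts being 122 and 121 CPM without cytokine, 155 and 153 (mIL-21) against 285 and 272 (21h10) when given 100 pM, then 266 and 276 (mIL-21) against 307 and 275 (21h10) when given 1 nM (mean 0.99 (SE 0.044)). Some of the Hmgcs1 exonic bases (12.1%) are shared with Gm48342 on the other strand and 26.7% of those of Fdps with Gm43738.

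Idi1 and Ggps1 went the other way. Idi1, the isomerase that supplies dimethylallyl diphosphate, was at 233 and 223 CPM without cytokine, 93.7 and 94.8 (mIL-21) against 134.8 and 137.5 (21h10) when given 100 pM, then 143.3 and 122 (mIL-21) against 131 and 139.5 (21h10) when given 1 nM. All treated libraries were below the unstimulated pair and those of the low mIL-21 dose were the lowest (log2 fold change -0.89, SE 0.045, edgeR adjusted p = 2.75e-12). Ggps1, which makes the geranylgeranyl diphosphate used for protein prenylation, fell by 0.42 on the log2 scale on average (SE 0.048). Near-identical copies cover about 22.5% of the Idi1 transcript and 21.3% of that of Ggps1, so their counts are less certain. Acat2, a cytosolic acetoacetyl-CoA thiolase, did not pass on average (log2 fold change -0.00, SE 0.045, edgeR adjusted p = 0.942), being lower with mIL-21 at 100 pM (-0.42) and higher with 21h10 at 100 pM (0.19). A close copy, Acat3, matches 65.6% of its transcript at 97.7% identity.

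From squalene to cholesterol, 9 of 11 genes rose on average in experiment 1, none fell, and Hsd17b7 and Ebp did not pass. Tm7sf2, a sterol reductase gene at low level, had the widest change, with 4.69 and 3.96 CPM without cytokine, 9.13 and 8.46 (mIL-21) against 12.4 and 11.8 (21h10) when given 100 pM, then 12.1 and 11.6 (mIL-21) against 11.4 and 9.74 (21h10) when given 1 nM (log2 fold change 1.29, SE 0.084, edgeR adjusted p = 9.99e-11). No treated library overlapped the unstimulated ones. Of the exonic bases of Tm7sf2, 12.1% are shared with Vps51 on the same strand. Msmo1, the methylsterol monooxygenase that starts the removal of methyl groups from lanosterol products, was at 51.0 and 53.7 CPM without cytokine, 65.5 and 64.9 (mIL-21) against 127 and 126 (21h10) when given 100 pM, then 127 and 114 (mIL-21) against 126 and 127 (21h10) when given 1 nM (mean 1.02 (SE 0.045)). Its low-dose mIL-21 libraries were a little above the unstimulated ones while the other treated groups were more than 2-fold higher on average. Fdft1, the squalene synthase gene, was at 59.0 and 58.8 CPM without cytokine, 81.5 and 82.0 (mIL-21) against 129 and 129.5 (21h10) when given 100 pM, then 117 and 125 (mIL-21) against 140.4 and 139.6 (21h10) when given 1 nM (mean 0.97 (SE 0.039)), again with the low mIL-21 dose nearest to the unstimulated pair; 18.3% of its exonic bases overlap Ctsb on the other strand and a copy, Gm6781, covers 33.7% of its transcript. Cyp51, the lanosterol demethylase gene, fell with mIL-21 at 100 pM (-0.29) and rose in the other groups (0.40 to 0.54). Sc5d, a sterol desaturase gene, had the same pattern (-0.27, against 0.20 to 0.27). The call of its mean (0.11) ended with limma, without the filter on low counts and with library sizes from mapped reads. It also ended without either unstimulated library, either mIL-21 library at 100 pM or the second 21h10 library at 100 pM. Mean changes of the others were 0.75 for Lss (lanosterol synthase), 0.65 for Nsdhl (sterol dehydrogenase), 0.48 for Dhcr7 (the last reductase of the route), 0.30 for Sqle (squalene epoxidase), 0.09 for Ebp (sterol isomerase) and 0.04 for Hsd17b7 (a ketosteroid reductase).

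The transport genes did not share one dose pattern. Stard4, a cytosolic sterol carrier, was at 58.5 and 58.6 CPM without cytokine, 74.1 and 75.5 (mIL-21) against 94.1 and 96.2 (21h10) when given 100 pM, then 92.0 and 87.4 (mIL-21) against 107 and 117 (21h10) when given 1 nM and was highest with 21h10 at 1 nM (mean 0.65 (SE 0.043)). Abcg1, which exports cholesterol to lipoproteins, was at 30.2 and 28.7 CPM without cytokine, 57.4 and 56.5 (mIL-21) against 53.2 and 50.7 (21h10) when given 100 pM, then 43.9 and 44.2 (mIL-21) against 26.5 and 26.9 (21h10) when given 1 nM. It was raised by 3 treatments (0.58 to 0.95) and was below the unstimulated cells with 21h10 at 1 nM (log2 fold change -0.14, SE 0.057, edgeR adjusted p = 0.0319), a call that ended with DESeq2, with only the groups compared and without any 1 of 3 of the 4 libraries (the first unstimulated or either of 21h10). Abca1, the efflux transporter to lipid-poor apolipoprotein, was present at only 3.23 and 2.54 CPM without cytokine, 5.55 and 4.84 (mIL-21) against 4.43 and 4.31 (21h10) when given 100 pM, then 4.09 and 4.52 (mIL-21) against 5.06 and 7.19 (21h10) when given 1 nM. Its 2 libraries with 21h10 at 1 nM were the farthest apart, yet every treated library was above the unstimulated pair (mean 0.76 (SE 0.12)). The call of this mean ended with limma.

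Fatty acid genes split between carbon supply, core synthesis and modification. Me1, the cytosolic malic enzyme that yields NADPH, showed the widest change of all 37 genes. Its counts were 2.01 and 2.09 CPM without cytokine, 12.5 and 12.6 (mIL-21) against 20.4 and 18.9 (21h10) when given 100 pM, then 18.8 and 18.6 (mIL-21) against 22.5 and 23.9 (21h10) when given 1 nM. That was an 8.85-fold mean rise (log2 fold change 3.15, SE 0.078, edgeR adjusted p = 1.37e-16), and even the libraries of the low mIL-21 dose were far above both unstimulated ones. Acss2, which makes acetyl-CoA from acetate, was at 13.8 and 13.9 CPM without cytokine, 46.0 and 44.0 (mIL-21) against 49.4 and 49.5 (21h10) when given 100 pM, then 49.5 and 49.5 (mIL-21) against 41.4 and 38.7 (21h10) when given 1 nM, and the 4 treatments raised it by 1.53 to 1.84 (mean 1.73 (SE 0.05)). The core enzymes Fasn and Acaca fell. Fasn, the fatty acid synthase gene, was at 419 and 422 CPM without cytokine, 198 and 195 (mIL-21) against 199 and 199 (21h10) when given 100 pM, then 188 and 201 (mIL-21) against 181 and 164 (21h10) when given 1 nM. Treated and unstimulated libraries were apart, and the mean change was -1.14 (SE 0.037, edgeR adjusted p = 5.58e-15). Acaca, the acetyl-CoA carboxylase gene, fell by 0.72 on the log2 scale (SE 0.034), with values from -0.80 to -0.66 over the groups. Acly, which cleaves citrate to acetyl-CoA, was at -0.09, a call that ended with DESeq2 and without either unstimulated library. Near-identical copies cover 64.3% of the Acaca transcript and up to 49.8% of that of Me1.

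Most desaturases and elongases rose instead. Scd1, which introduces the first double bond into stearate and palmitate, was at 88.3 and 85.3 CPM without cytokine, 117 and 114 (mIL-21) against 265 and 284 (21h10) when given 100 pM, then 247 and 242 (mIL-21) against 239 and 240.1 (21h10) when given 1 nM (mean 1.26 (SE 0.04)). Fads2, the desaturase that starts polyunsaturated fatty acid synthesis, was at 23.6 and 22.7 CPM without cytokine, 22.4 and 23.0 (mIL-21) against 51.2 and 52.4 (21h10) when given 100 pM, then 44.3 and 50.7 (mIL-21) against 59.0 and 50.8 (21h10) when given 1 nM (mean 0.85 (SE 0.062)). For both, the low dose of mIL-21 was nearest to the unstimulated level, and for Fads2 its libraries overlapped the unstimulated ones. Elovl6, the elongase from palmitate to stearate, was graded by dose and cytokine, at 52.8 and 52.3 CPM without cytokine, 49.2 and 47.6 (mIL-21) against 95.4 and 93.3 (21h10) when given 100 pM, then 113 and 111 (mIL-21) against 201.5 and 216 (21h10) when given 1 nM. Its response ranged from -0.12 (SE 0.051) with mIL-21 at 100 pM to a rise of 1.99 (SE 0.049) with 21h10 at 1 nM. The call at -0.12 ended with DESeq2, limma, library sizes from mapped reads or a replicate block. It also ended without the filter on low counts and without any 1 of the 4 libraries compared. Scd2 (0.74) and Elovl5 (0.77) also rose on average. The call of Fads1 (0.09) ended with limma, with library sizes from mapped reads, without the filter on low counts and with a replicate block. Leaving out either unstimulated library, any library of either cytokine at 100 pM or the second of mIL-21 at 1 nM ended that call too.

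**Figure D3:**
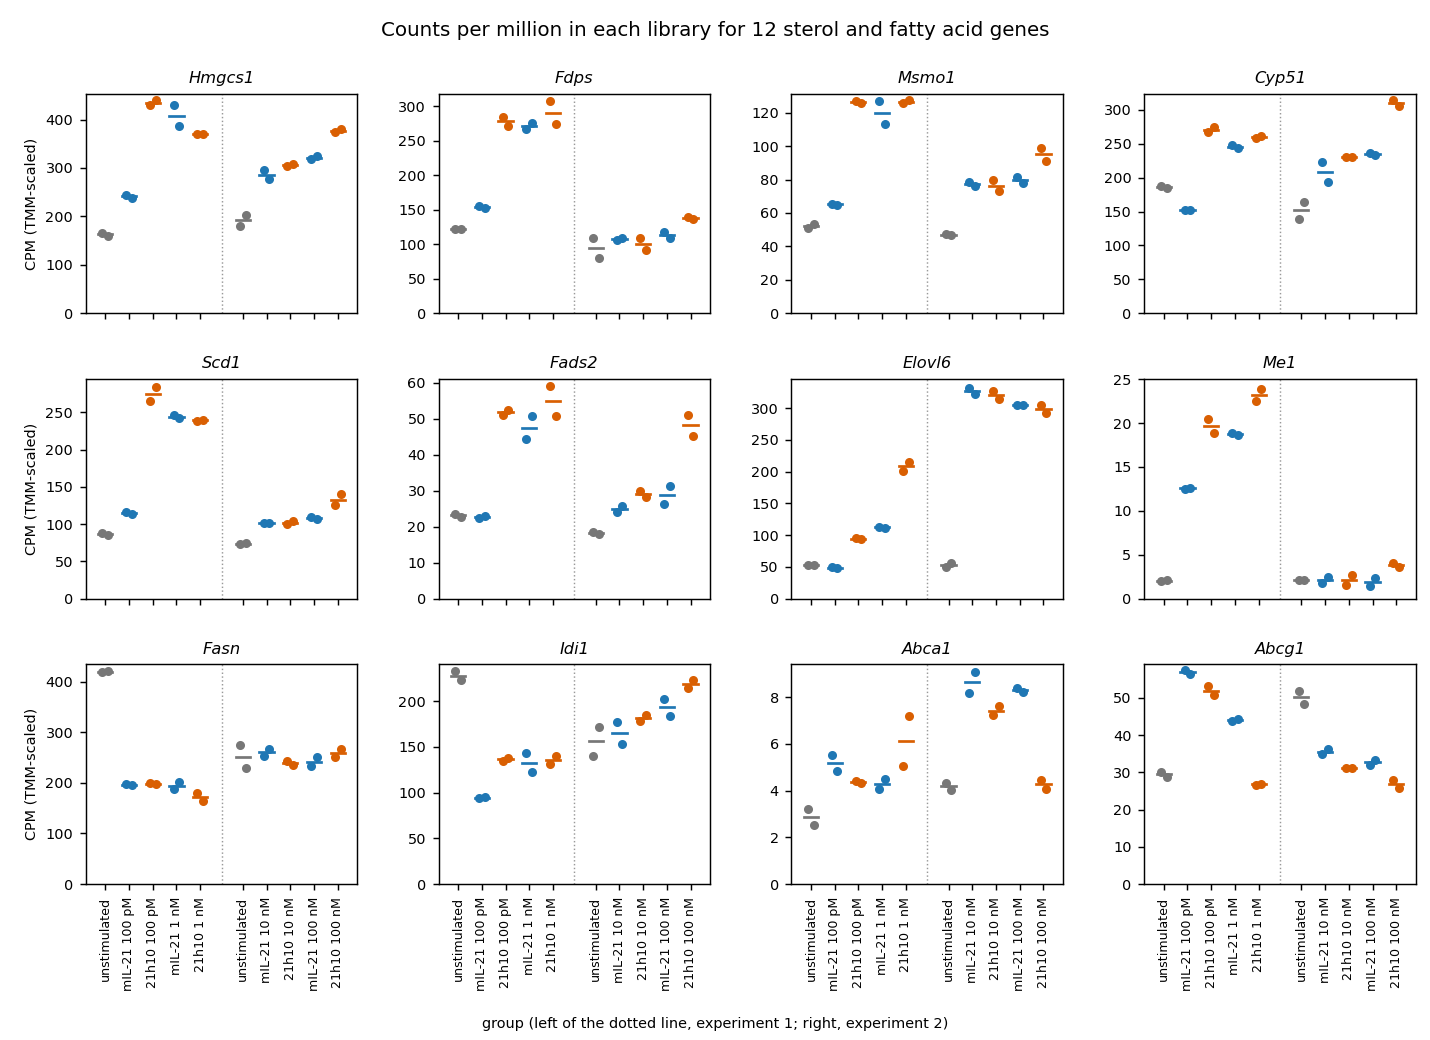
CPM (y axis, TMM-scaled, from 0) of 12 genes in each library (points) with the group mean (bars), by group (x axis; grey, unstimulated; blue, mIL-21; orange, 21h10; dotted line between experiment 1 and experiment 2). Hmgcs1, Fdps, Msmo1, Scd1 and Fads2 with mIL-21 at 100 pM lie nearest to the unstimulated libraries and far below the other treated groups of experiment 1, Elovl6 climbs across experiment 1 and is higher still in all treated libraries of experiment 2, and Fasn is lower than in unstimulated cells in every treated library of experiment 1.

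Whether the designed protein and the native cytokine act alike at the same dose was asked by comparing 21h10 with mIL-21 directly. At 100 pM, 21h10 gave the higher level of 28 of 37 genes and the lower level of 1 (Scap), with a median log2 difference of 0.45. Of all genes tested, 38.6% were called (19.6% higher and 19% lower), and their median difference was -0.0068, which dropped by 0.101 with library sizes from mapped reads. With those sizes the split of the 37 was 24 higher and 3 lower. The calls of Scap and Acly ended without any 1 of the 4 libraries compared. That of Ggps1 ended with limma, with library sizes from mapped reads, without the first mIL-21 library and without the second 21h10 library. All 8 mevalonate genes and 9 of 11 squalene to cholesterol genes were called higher, with medians of 0.63 and 0.54. In each of these 19 genes both 21h10 libraries were above both mIL-21 libraries, though Hsd17b7 and Ebp did not pass (intervals -0.04 to 0.28 and 0.03 to 0.27). The share of all genes with such a separation was not computed.

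The 8 genes with the widest difference at 100 pM came from both routes. Scd1 was at 117 and 114 CPM with mIL-21 and 265 and 284 with 21h10, a 2.38-fold difference (log2 fold change 1.25, SE 0.048, edgeR adjusted p = 3.44e-12). Fads2 was at 22.4 and 23.0 against 51.2 and 52.4 CPM (log2 fold change 1.19, SE 0.076, edgeR adjusted p = 2.14e-09). Elovl6 was at 49.2 and 47.6 against 95.4 and 93.3 CPM, a log2 difference of 0.96 (SE 0.05). Scd1, Fads2 and Elovl6 belong to the desaturase and elongase genes of the fatty acid branch. Of the rest of that class, Scd2 and Elovl5 passed outside these 8 genes and Fads1 did not pass. The call of Elovl5 ended with limma and with library sizes from mapped reads. In the sterol branches, Msmo1 differed by 0.96 (SE 0.054), with 65.5 and 64.9 against 127 and 126 CPM. Fdps differed by 0.86 (SE 0.052), with 155 and 153 against 285 and 272 CPM. Hmgcs1 differed by 0.85 (SE 0.051), with 244 and 238 against 429.6 and 439.6 CPM. In each case the 21h10 libraries were well above those of mIL-21 and close to each other. Cyp51, at 153 and 152 against 267 and 275 CPM (0.83 (SE 0.043)), and Fdft1, at 81.5 and 82.0 against 129 and 129.5 CPM (0.66 (SE 0.047)), completed the group. The core synthesis genes Fasn and Acaca, lowered by both cytokines, had intervals of -0.08 to 0.12 and -0.03 to 0.15 for the difference between them and did not pass. Abca1 (-0.26, interval -0.55 to 0.04) and Abcg1 (-0.13, interval -0.24 to -0.03) did not pass either.

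At 1 nM the difference between the cytokines was smaller for the sterol genes. There, 7 genes were higher and 7 lower with 21h10 (37.7% of all genes called, 19.6% higher and 18.1% lower), the median over the 37 was 0.01, and only Fdft1 (0.21), Dhcr7 (-0.22) and Hmgcs1 (-0.14) of the 19 sterol genes passed. With DESeq2 the same count was 10 higher and 4 lower, and in a fit of these groups alone 6 and 3. It was 5 higher and 7 lower with limma and 6 and 9 with library sizes from mapped reads, so the split depended on the processing. The 2 widest differences were outside the sterol branches. Elovl6 was at 113 and 111 CPM with mIL-21 and 201.5 and 216 with 21h10 (log2 fold change 0.90, SE 0.048, edgeR adjusted p = 1.85e-10). Abcg1 was at 43.9 and 44.2 against 26.5 and 26.9 CPM and so lower with 21h10 (log2 fold change -0.72, SE 0.057, edgeR adjusted p = 2.58e-08). In both genes the libraries of the cytokines were far apart. Abca1 was higher with 21h10, at 4.09 and 4.52 against 5.06 and 7.19 CPM (0.53 (SE 0.16)), the 21h10 libraries being spread. The call of Abca1 ended with limma, without the first mIL-21 library and without the second 21h10 library. Stard4 was at 92.0 and 87.4 against 107 and 117 CPM (0.33 (SE 0.052)), Me1 at 18.8 and 18.6 against 22.5 and 23.9 (0.31 (SE 0.071)) and Acss2 at 49.5 and 49.5 against 41.4 and 38.7 (-0.31 (SE 0.056)). Scd1, the gene that differed most at 100 pM, had an interval of -0.12 to 0.06 here, and Msmo1 one of -0.03 to 0.18.

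**Figure D4:**
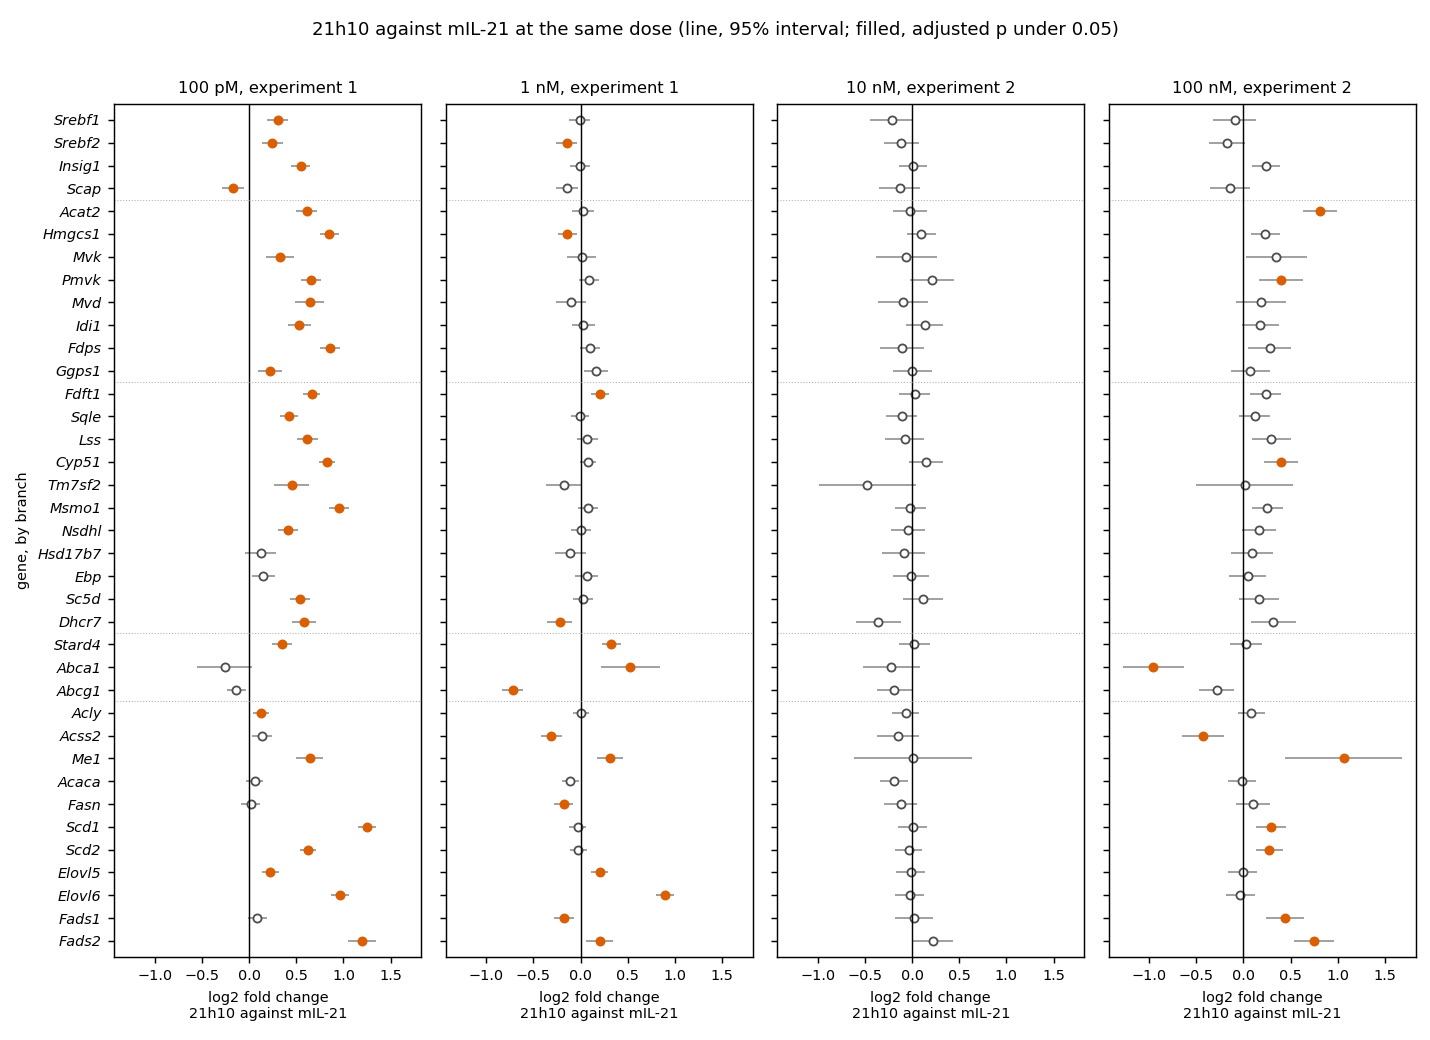
Log2 difference, 21h10 relative to mIL-21 (x axis), for the 37 genes (y axis, by branch, separated by dotted lines) at the same dose in each experiment; lines are 95% intervals and filled points passed the edgeR adjusted p threshold. At 100 pM the points of both sterol branches are all right of 0, at 1 nM and 10 nM most are near 0, and at 100 nM Acat2, Fads2 and Me1 are to the right and Abca1 to the left.

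The change of the cytokine difference between 100 pM and 1 nM was tested as an interaction. It was called for 26 genes, lower at 1 nM for 25 and higher for 1 (Abca1, 0.79 (SE 0.22)), against 18.4% of all genes (8.34% higher and 10% lower). The interaction call of Abca1 ended with limma and without the first mIL-21 library at 100 pM. It also ended without the second 21h10 library of either dose. Within the sterol branches 15 of 19 genes passed, all in the same direction, and the widest were Hmgcs1 (-0.99 (SE 0.072)) and Msmo1 (-0.88 (SE 0.076)). Scd1 had the widest of all (log2 fold change -1.28, SE 0.066, edgeR adjusted p = 1.37e-09). Elovl6 did not pass (-0.07, interval -0.20 to 0.07), its difference between the cytokines being 0.96 at 100 pM and 0.90 at 1 nM.

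The dose steps within each cytokine set these values in order. From 100 pM to 1 nM of mIL-21, 27 genes rose and 1 fell (Abcg1, -0.37; background 34.5% called, 17.9% higher and 16.6% lower), 17 of the 19 sterol genes among the risers, for instance Msmo1 (0.88 (SE 0.055)), Fdps (0.82 (SE 0.053)) and Hmgcs1 (0.76 (SE 0.051)). With library sizes taken from mapped reads, the median of all genes dropped by 0.116 in this step. The same step of 21h10 raised 5 genes and lowered 10 (background 39.2% called, 20.1% higher and 19.1% lower), and the sterol genes that passed, Hmgcs1 (-0.23) and Dhcr7 (-0.34), fell. Elovl6 rose in both, by 1.21 (SE 0.05) with mIL-21 and 1.15 (SE 0.048) with 21h10. Abcg1 fell with both, by 0.37 and 0.96 on the log2 scale. These steps share libraries with the comparisons above. Without the second library of 21h10 at 100 pM, the 21h10 step called 8 genes in place of 15.

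Levels with 100 pM of 21h10 were near those with 1 nM of mIL-21, so these groups were compared directly, at doses that differ. Only Elovl6 passed (log2 fold change -0.25, SE 0.048, edgeR adjusted p = 0.0165), against 0.737% of all genes called (0.157% higher and 0.58% lower). The other 36 genes did not pass, with log2 differences from -0.226 (Hsd17b7) to 0.24 (Abcg1). The intervals of the genes that differed most at 100 pM were 0.08 to 0.26 for Scd1, -0.02 to 0.26 for Fads2, -0.03 to 0.18 for Msmo1 and -0.01 to 0.19 for Hmgcs1. DESeq2 called 3 genes in this comparison and limma none, and leaving out any of 3 of its 4 libraries (the first of mIL-21 at 1 nM or either of 21h10) ended the call of Elovl6.

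In experiment 2, at 10 nM and 100 nM, the average over the treated groups was higher than in unstimulated cells for 20 of 37 genes and lower for 7 (median 0.23), with 57.5% of all 13772 genes called (27.5% higher and 30.1% lower). The split depended on scaling: with library sizes from mapped reads it was 13 higher and 10 lower, and with limma on log2(RPKM + 1) 12 and 10, and under these scalings the median of all genes dropped by 0.243 and 0.213. The share of mapped reads that fell on genes moved with treatment in this experiment, at 76.6% and 80.9% in unstimulated and 66.2% to 75.2% in treated libraries, and its part in the result was not tested. The 2 unstimulated libraries of this experiment were the least alike duplicates, with a chi-square between them of 38.3 per degree of freedom. In the other groups of both experiments it ranged from 2.74 to 19.5. Leaving out either of these unstimulated libraries gave 23 calls in the mean response in place of 27. By group, mIL-21 at 10 nM gave 17 higher and 5 lower genes (background 22.5% and 23.7%, 46.2% in all), and 21h10 at that dose 15 and 6 (25.2% and 24.9%, 50.1%). At 100 nM, mIL-21 gave 17 and 6 (22.5% and 23.7%, 46.2%) and 21h10 21 and 6 (25% and 25.8%, 50.8%). In each group both of these scalings moved the split toward lower calls, down to 10 higher and 11 lower with limma for 21h10 at 10 nM.

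Elovl6 had the widest response of experiment 2, with 49.6 and 55.6 CPM without cytokine, 332 and 322 (mIL-21) against 327 and 315 (21h10) when given 10 nM, then 305 and 305 (mIL-21) against 305 and 292 (21h10) when given 100 nM. Treated and unstimulated libraries were far apart, with a mean rise of 5.95-fold (log2 fold change 2.57, SE 0.075, edgeR adjusted p = 1.44e-13). Hmgcs1 was at 180.4 and 202.7 CPM without cytokine, 296 and 276 (mIL-21) against 304 and 308 (21h10) when given 10 nM, then 317 and 325 (mIL-21) against 374 and 379.7 (21h10) when given 100 nM (mean 0.74 (SE 0.066)). Msmo1 was at 47.4 and 46.5 CPM without cytokine, 78.5 and 76.1 (mIL-21) against 79.7 and 73.2 (21h10) when given 10 nM, then 81.6 and 78.2 (mIL-21) against 99.2 and 91.2 (21h10) when given 100 nM (mean 0.80 (SE 0.07)). In both sterol genes the treated libraries were all above the unstimulated pair and 21h10 at 100 nM was the highest group. In the mevalonate branch 6 of 8 genes passed as higher on average and none as lower, but with limma or with library sizes from mapped reads only 2 did (Acat2 and Hmgcs1). Pmvk (0.23), as well as the regulator Srebf2 (0.22), turned to -0.019 and -0.022 with library sizes from mapped reads. From squalene to cholesterol 7 of 11 were higher (5 under these scalings, without Ebp and Sqle), among them Hsd17b7 (0.92 (SE 0.10)), Sc5d (0.86 (SE 0.09)), Lss (0.72 (SE 0.087)) and Cyp51 (0.68 (SE 0.077)). Tm7sf2 and Dhcr7 were lower; Tm7sf2 was at 8.13 and 5.81 CPM without cytokine, 3.29 and 4.80 (mIL-21) against 2.32 and 3.51 (21h10) when given 10 nM, then 3.44 and 3.90 (mIL-21) against 4.01 and 3.38 (21h10) when given 100 nM (log2 fold change -0.97, SE 0.18, edgeR adjusted p = 3.15e-04), with all treated libraries below the unstimulated ones. Abcg1, at 51.9 and 48.4 CPM without cytokine, 34.9 and 36.2 (mIL-21) against 31.2 and 31.1 (21h10) when given 10 nM, then 32.1 and 33.3 (mIL-21) against 28.0 and 25.7 (21h10) when given 100 nM, was likewise lower (-0.68 (SE 0.07)). Abca1 was at 4.33 and 4.04 CPM without cytokine, 8.20 and 9.08 (mIL-21) against 7.23 and 7.64 (21h10) when given 10 nM, then 8.39 and 8.23 (mIL-21) against 4.47 and 4.09 (21h10) when given 100 nM: it was raised in 3 groups and stayed at the unstimulated level with 21h10 at 100 nM. Fads1, the second desaturase of polyunsaturated synthesis, fell (-0.60 (SE 0.077)), Elovl5 rose (0.83 (SE 0.066)), and Fasn (-0.01, interval -0.15 to 0.13) and Acss2 (-0.03, interval -0.20 to 0.15) did not pass.

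At 10 nM, no difference between 21h10 and mIL-21 was detected for any of the 37 genes. No gene of the 37 passed by edgeR, DESeq2 or limma, and 1 of 13772 genes was called in all by edgeR (0.00726%). An unadjusted edgeR p under 0.05 was found for 2 of 37, beside 1208 of all 13772. Intervals were wider than in experiment 1, for example -0.18 to 0.15 for Msmo1, -0.06 to 0.25 for Hmgcs1, -0.15 to 0.16 for Scd1 and -0.18 to 0.13 for Elovl6, all of which leave out the differences of these genes at 100 pM. For genes of few reads they were wide, at -0.62 to 0.63 for Me1 and -0.99 to 0.04 for Tm7sf2. The step from 10 nM to 100 nM of mIL-21 likewise called 0 genes by edgeR, DESeq2 or limma, among the 37 and among all genes tested by edgeR (0%). Here 1 of 37 was at an unadjusted edgeR p under 0.05, beside 361 of all 13772.

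At 100 nM, 21h10 was higher for 8 genes and lower for 2 (8.52% of all genes called, 4.01% higher and 4.52% lower). All 19 sterol genes had a difference above 0 (median 0.23, beside -0.0020 for all genes tested), and 3 of them passed. Acat2 was at 54.6 and 49.5 CPM with mIL-21 and 92.3 and 90.3 with 21h10 (log2 fold change 0.81, SE 0.092, edgeR adjusted p = 4.16e-05). Fads2 was at 26.4 and 31.2 against 51.1 and 45.3 CPM (log2 fold change 0.74, SE 0.11, edgeR adjusted p = 4.11e-04). In both genes the groups were clearly apart. Me1 was at 1.43 and 2.29 against 4.08 and 3.64 CPM (1.06 (SE 0.31)), few reads in each library. Abca1, the efflux transporter, was lower with 21h10, at 8.39 and 8.23 against 4.47 and 4.09 CPM (log2 fold change -0.95, SE 0.17, edgeR adjusted p = 0.00181), the opposite of its direction at 1 nM in experiment 1. Both of these Abca1 calls ended with limma, and the 1 nM call also depended on single libraries (above). Fads1 (0.44), Pmvk (0.40), Cyp51 (0.40), Scd1 (0.29) and Scd2 (0.27) were also higher and Acss2 (-0.43) lower. These calls depended on the libraries, since only 3 or 4 genes passed when any of the 4 libraries was left out, and on scaling, with 4 higher and 2 lower by mapped reads and 2 higher and 1 lower by limma. From 10 nM to 100 nM of 21h10, 11 genes rose and 1 fell (Abca1, -0.79; background 5.33% called, 1.88% higher and 3.45% lower), including Acat2 (0.79 (SE 0.093)), Fads2 (0.73 (SE 0.11)) and Dhcr7 (0.50 (SE 0.12)). Leaving out any of the 4 libraries of this step left 2 or 3 calls in place of 12.

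Set beside each other, the experiments gave the same call for some genes and not for others. Of the 37 genes, 15 were higher in both and 2 lower in both (Scap and Acaca). Another 5 were higher in experiment 1 and lower in experiment 2 (Tm7sf2, Dhcr7, Stard4, Abcg1 and Fads1), and 2 the reverse (Idi1 and Ggps1). The other 13 passed in 1 experiment alone. Of all genes tested, 41.3% were called higher and 43% lower in experiment 1, and 27.5% and 30.1% in experiment 2. The share of all genes with each pair of calls was not computed. Among the 15 genes higher in both, the experiment 2 calls of Srebf2, Pmvk, Fdps, Sqle and Abca1 ended under an alternative. So did the experiment 1 calls of Sc5d and Abca1. In experiment 2 the calls of Idi1 and Ggps1 ended with limma, with library sizes from mapped reads and without the first unstimulated library. That of Dhcr7 ended without the same library, and that of Stard4 with DESeq2, without the filter on low counts and without any 1 of 9 of the 10 libraries. With the experiment 1 call of Fads1 uncertain too (above), Tm7sf2 and Abcg1 were the genes whose opposite calls held under each alternative run. The difference between the experiments was tested in a fit of all 20 libraries and called for 29 genes, with 20 lower and 9 higher in experiment 2 (64.7% of all genes called, 31.2% higher and 33.5% lower). Me1, raised 8.85-fold in experiment 1, was at 2.17 and 2.10 CPM without cytokine, 1.76 and 2.43 (mIL-21) against 1.53 and 2.67 (21h10) when given 10 nM, then 1.43 and 2.29 (mIL-21) against 4.08 and 3.64 (21h10) when given 100 nM in experiment 2. Its treated libraries overlapped the unstimulated ones except with 21h10 at 100 nM, and the difference was -3.05 (SE 0.23, edgeR adjusted p = 1.87e-10). Acss2 was at 25.2 and 21.3 CPM without cytokine, 25.6 and 25.7 (mIL-21) against 22.3 and 23.9 (21h10) when given 10 nM, then 24.8 and 24.97 (mIL-21) against 17.5 and 19.4 (21h10) when given 100 nM in experiment 2 (difference -1.81 (SE 0.092)). Tm7sf2 differed by -2.33 (SE 0.21), Pmvk by -1.37 (SE 0.10), Mvk by -1.29 (SE 0.14) and Mvd by -1.25 (SE 0.13), all lower in experiment 2. Elovl6 (1.56 (SE 0.073)), Idi1 (1.10 (SE 0.10)) and Fasn (1.07 (SE 0.084)) had the higher response there. Elovl5 (-0.00, interval -0.14 to 0.13), Scap (-0.05), Lss (-0.09) and Sqle (-0.03) were among the 8 that did not pass. Unstimulated levels were also unlike for some of these genes: Fasn was at 419 and 422 CPM in experiment 1 and 276 and 229 in experiment 2, and Acss2 at 13.8 and 13.9 and 25.2 and 21.3. Dose and experiment cannot be told apart in these differences.

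**Figure D5:**
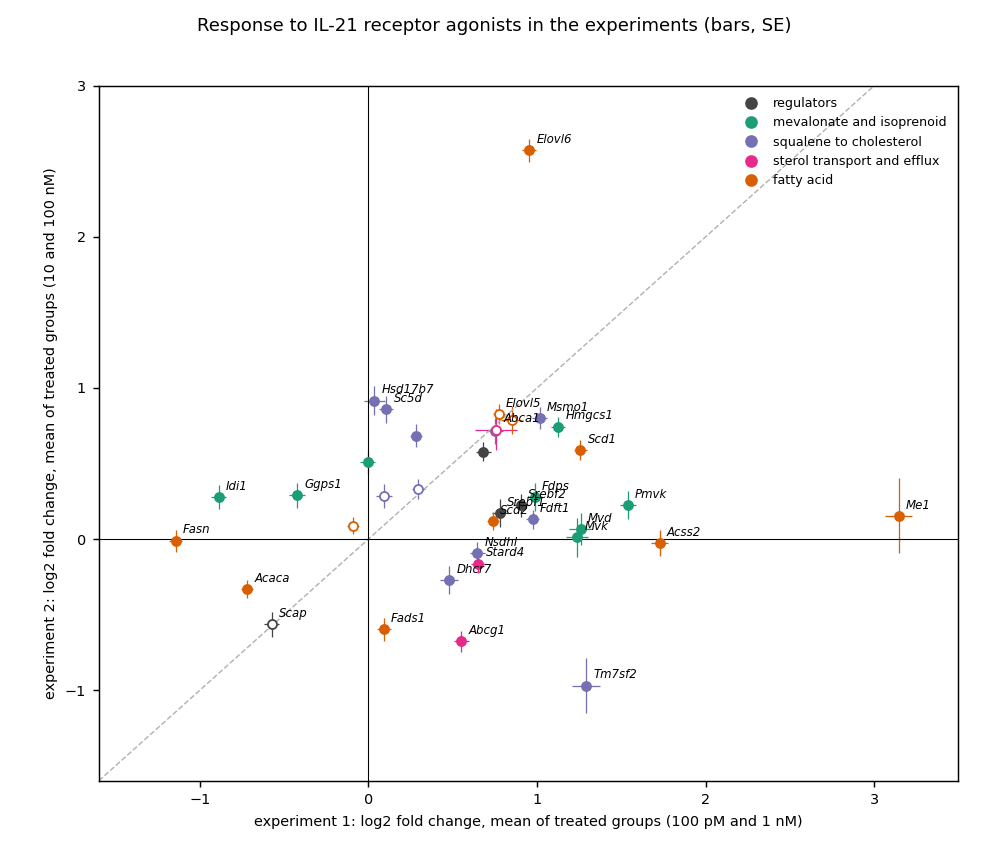
Log2 fold change of the mean of the treated groups against unstimulated cells in experiment 1 (x axis) and experiment 2 (y axis) for the 37 genes, coloured by branch, with SE bars; filled points differed between the experiments (edgeR adjusted p under 0.05) and the dashed line marks equal response. Me1, Acss2 and Tm7sf2 lie far below the line, Elovl6, Idi1 and Fasn above it, and Scap and Elovl5 close to it.

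Related genes outside these 37 were followed as well. Of 66 further genes of sterol regulation, isoprenoid use, sterol handling, fatty acid activation and fatty acid oxidation, 63 were tested, and in experiment 1 24 were higher and 33 lower on average (median -0.13, beside 41.3% and 43% of all genes). At 100 pM, 21h10 gave the higher level of 20 of these 63 and the lower level of 7 (median 0.04, beside 0.45 for the 37 and beside 19.6% and 19% of all genes called). Of the 10 genes in other isoprenoid branches, 9 fell and 1 rose, among them Pdss1, which makes the ubiquinone side chain (-2.20 (SE 0.063)). Genes of fatty acid oxidation were divided, with 3 higher and 4 lower of 10. Among the wide rises were those of Acadl, the long-chain acyl-CoA dehydrogenase (2.04 (SE 0.039)), and Lpin1, a phosphatidate phosphatase (1.79 (SE 0.051)). Besides Pdss1, the widest falls were those of Mecr, of mitochondrial fatty acid synthesis (-1.61 (SE 0.052)), and Acsl1, an acyl-CoA synthetase (-1.18 (SE 0.07)).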

How the data were processed

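Per the labels and the methods of the paper, mRNA libraries of murine CD8+ T cells were sequenced and mapped to mm10 (GRCm38). The tools named in the submitters' processing notes are Bowtie2 2.2.6, TopHat2 2.0.11, SAMtools 0.1.8, bedtools 2.25.0 and edgeR; the use of strand in counting is not given in the sources used here. The authors deposited 1 table per library with the read count of each of 31682 RefSeq transcripts, which are raw whole numbers, and an RPKM value computed from that count, the transcript length and the mapped reads. The counts were used for all tests and RPKM only to compare genes and for an alternative. Each symbol was represented by its longest transcript; 4 genes of the lists used here, Msmo1 among the 37, were filed under older symbols and matched by RefSeq accession.

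Genes with too few reads were removed (filterByExpr, least count 10, least total 15), which left 13974 genes in experiment 1, 13772 in experiment 2 and 14530 in the fit of both. Library sizes were scaled by TMM, and the edgeR quasi-likelihood test (glmQLFit with glmQLFTest, edgeR 4.0.16, R 4.3.3) was run on the 10 libraries of an experiment with group as factor; p-values were adjusted over all genes tested. Intervals are 95%, from the SE of the fit. The spread between duplicates (biological coefficient of variation) was 4.32% in experiment 1 and 8.80% in experiment 2. The test was also run on simulated counts with known changes and the same spread for all genes. That setting is simpler than these data, so the calls here do not rest on it. Alternatives were DESeq2 1.42.0, limma 3.58.1 on log2(RPKM + 1), no filter, only the groups compared, a replicate block, the most-read transcript, library sizes from mapped reads without TMM, and leaving out each library. Near-identical copies (BLAST 2.17.0, at least 95% identity over 100 bases) and overlapping exons were taken from GENCODE vM21 on GRCm38.

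The 37 genes and the gene lists were chosen with earlier results of these data known. All 37 are named. Values of each library are given for up to 3 genes per branch with the largest mean change and up to 8 with the largest difference between the cytokines at a dose; of the 66 other pathway genes, the 3 largest rises and falls past the threshold in experiment 1 are named, except 1 gene that is not reported here. Duplicates differed by more than sampling noise, and each was counted as a library of its own. That spread does not tell whether they came from separate mice or cultures.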

Additional observations from a re-analysis of the deposited data

Results flagged for a closer look

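The log2 difference between 21h10 and mIL-21 was not the same at 1 nM as at 100 pM in experiment 1 for 26 genes, by the edgeR interaction test at an adjusted p under 0.05. Negative values mean that 21h10 exceeded mIL-21 by less, or fell short of it by more, at 1 nM. In the mevalonate and isoprenoid branch the changes were -0.59 for Acat2, -0.99 for Hmgcs1, -0.57 for Pmvk, -0.74 for Mvd, -0.50 for Idi1 and -0.75 for Fdps. From squalene to cholesterol they were -0.46 for Fdft1, -0.42 for Sqle, -0.54 for Lss, -0.75 for Cyp51, -0.63 for Tm7sf2, -0.88 for Msmo1, -0.41 for Nsdhl, -0.51 for Sc5d and -0.81 for Dhcr7. Among the regulators they were -0.31 for Srebf1, -0.40 for Srebf2 and -0.55 for Insig1, and among the transport genes 0.79 for Abca1 and -0.59 for Abcg1. The fatty acid genes gave -0.44 for Acss2, -0.33 for Me1, -1.28 for Scd1, -0.64 for Scd2, -0.26 for Fads1 and -0.99 for Fads2.

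The mean response to the cytokines differed between the experiments for 29 genes, by the same kind of test in the fit of all 20 libraries; negative values mean a lower response in experiment 2. Among the regulators the differences were -0.67 for Srebf1, -0.74 for Srebf2 and -0.17 for Insig1. In the mevalonate and isoprenoid branch they were 0.45 for Acat2, -0.44 for Hmgcs1, -1.29 for Mvk, -1.37 for Pmvk, -1.25 for Mvd, 1.10 for Idi1, -0.77 for Fdps and 0.65 for Ggps1. From squalene to cholesterol they were -0.90 for Fdft1, 0.34 for Cyp51, -2.33 for Tm7sf2, -0.27 for Msmo1, -0.80 for Nsdhl, 0.82 for Hsd17b7, 0.69 for Sc5d and -0.81 for Dhcr7. The transport genes gave -0.87 for Stard4 and -1.29 for Abcg1, and the fatty acid genes -1.81 for Acss2, -3.05 for Me1, 0.33 for Acaca, 1.07 for Fasn, -0.73 for Scd1, -0.68 for Scd2, 1.56 for Elovl6 and -0.75 for Fads1. The doses of the experiments differ too, and their part cannot be told apart from that of the experiment. No group held the 4 or more libraries needed to look for a library far from the others.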

How the results depend on the processing

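Over 21 comparisons, 239 of 260 counts of called genes under an alternative stayed within 1.5 times the count reported. Calls held under all alternatives, single libraries left out included, for 30 of 34 genes in the mean response of experiment 1, 17 of 27 in that of experiment 2, 24 of 29 in 21h10 against mIL-21 at 100 pM, 7 of 14 at 1 nM and 2 of 10 at 100 nM. In 21h10 against mIL-21 at 1 nM, 9 genes passed with only those groups in place of 14. At 100 nM, 3 passed with limma, 6 with library sizes from mapped reads and 17 with only those groups in place of 10, and 3 to 4 when a library was left out. From 10 nM to 100 nM of 21h10, 4 passed with limma and 6 with mapped-read sizes in place of 12, and 2 to 3 when a library was left out. From 100 pM to 1 nM of 21h10, leaving out a library gave 8 to 18 in place of 15. For 100 pM of 21h10 against 1 nM of mIL-21, DESeq2 called 3, limma 0 and mapped-read sizes 0 in place of 1, and leaving out a library gave 0 to 1. Of 5789 values of single genes under an alternative, 7 turned direction, all in experiment 2 and against unstimulated cells. Srebf2 turned to -0.011 with limma and -0.022 with mapped-read sizes on average and to -0.0050 with mapped-read sizes for 21h10 at 10 nM. Pmvk turned to -0.017 and -0.019 on average, and Ebp to -0.016 and -0.014 for 21h10 at 10 nM. The cause of these changes was not tested. Duplicate numbers were not taken to pair the libraries, since deviations of libraries with the same number correlated at -0.374 to 0.163 (experiment 1, 3 of 10 pairs of groups over 0.1) and at -0.339 to 0.241 (experiment 2, 7 of 10, median 0.141), and every pair over 0.1 was required. With the duplicate number as a replicate block, 33 genes passed in the mean response of experiment 1 in place of 34 (without Fads1) and 27 in that of experiment 2, as without it, and no count moved by over 1.5 times. With 2 libraries a group, small differences of genes with few reads, such as Me1 and Tm7sf2 in experiment 2, were not detectable at this depth.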
